A study of Mus musculus with 89 samples.

Results

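Choroid plexus RNA of aged mice that received young depleted serum (YDS) was compared with that of sham mice. Of the 89 libraries of the series, 34 are from choroid plexus of the infusion experiment, and 22 of these, 8 Sham and 14 YDS with 1 library per mouse, carry the comparison. The sample labels give these libraries only as choroid plexus of the young serum experiment. The arm of each mouse was therefore read from the column name of the deposited table, by the field after the mouse number, and in all 34 mice it was the same arm as in the columns of the hippocampal table. Columns of 2 YDS mice, C411 and C412, write the arm name 2 times. All recipients were C57BL/6 wild-type mice, 22 to 24 months old, given as male in the methods and as an equal mix of sexes in a legend of the study. *Ddx3y*, a gene of the Y chromosome, was at 81.2 to 203.6 CPM across the 34 libraries, so each held RNA of a male. Sham mice received saline. YDS mice received 100 µL of serum of young mice, from which extracellular vesicles had been precipitated with ExoQuick, by tail vein every 3 days over 25 days. Mice of the third arm, YS (n = 12), received whole young serum and enter only the common fit and the values given beside the main comparison. Mice were perfused, 1 hemisphere was dissected, and behavioural tests preceded the dissection in every arm. YDS and Sham mice thus differ in young serum as such and in the precipitating reagent, and the effects of these cannot be told apart in this comparison. The extract protocol of the labels speaks of cortex, while the tissue label is choroid plexus. Mice are called here by the codes of the labels, a C before the mouse number.

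The choroid plexus is a folded sheet of secretory epithelium around leaky capillaries in the ventricles of the brain. Its epithelium makes cerebrospinal fluid and closes the barrier between blood and that fluid, and its stroma holds fibroblasts and macrophages. It is also a tissue known for a type I interferon response in aged brains. Interferons bind receptors at the cell surface, whose kinases activate transcription factors. In the nucleus these, together with IRF9, bind interferon-stimulated response elements, short repeats of GAAA in the promoters of many antiviral genes. Such genes are markers of recent interferon signalling, in any cell type of the tissue.

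The table gives CPM (reads per gene, scaled to a common total for each library) for 13662 genes. The steps between low values gave 32119641 to 42015173 reads per library in Sham and 27165663 to 44654643 in YDS. *Ttr* (transthyretin, the main secreted protein of choroid plexus epithelium) was the check of the tissue, with *Folr1* (a folate receptor of the same epithelium) and *Kl* (α-Klotho, a co-receptor that the epithelium also sheds). *Ttr* lay between 108312 and 235998 CPM in Sham, with a median of 124810, and between 108923 and 204823 in YDS, with a median of 131670. *Folr1* was at 492.6 to 1008 CPM in Sham and 433.5 to 974 in YDS, and *Kl* at 2146 to 4468 CPM and 2003 to 4428. All 3 markers were thus abundant in every library and their arms overlapped. The log2 differences, YDS minus Sham, were -0.02 for *Ttr*, -0.12 for *Folr1* and -0.04 for *Kl*, with p = 0.906, 0.579 and 0.84 by exact two-sided permutation tests and an adjusted p of 0.906 for each over the 3 genes.

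Within each arm the markers separated mice by their numbers. Of mice C401 to C418, the YDS and YS libraries had 163015 to 218812 CPM of *Ttr* and 424.4 to 512 of *Folr1*. In mice C419 to C440 of all arms *Ttr* was at 102233 to 137424 CPM and *Folr1* at 686 to 1008. Of 4 Sham mice with low numbers, C406 and C408 lay with the former, C409 lay between and C410 lay with the latter, with 119152 CPM of *Ttr* and 917 of *Folr1*. The first principal component, with 55.6% of the variance of all 34 libraries, carried the same separation. The labels do not say what the numbers stand for. Each arm holds mice of both ranges, 4 and 4 in Sham, 5 and 9 in YDS, so the comparison is also given with a term for the range and within each range. Within mice C401 to C418 *Folr1* differed by -0.38 (exact permutation test, p = 0.0317), where Sham mouse C410 is 1 of the 4 Sham mice, and within mice C419 to C440 by -0.11 (exact permutation test, p = 0.162). In limma *Folr1* was at -0.24 with a term for the range (unadjusted p = 0.00799) and at -0.12 without it (unadjusted p = 0.559).

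**Figure D1:**
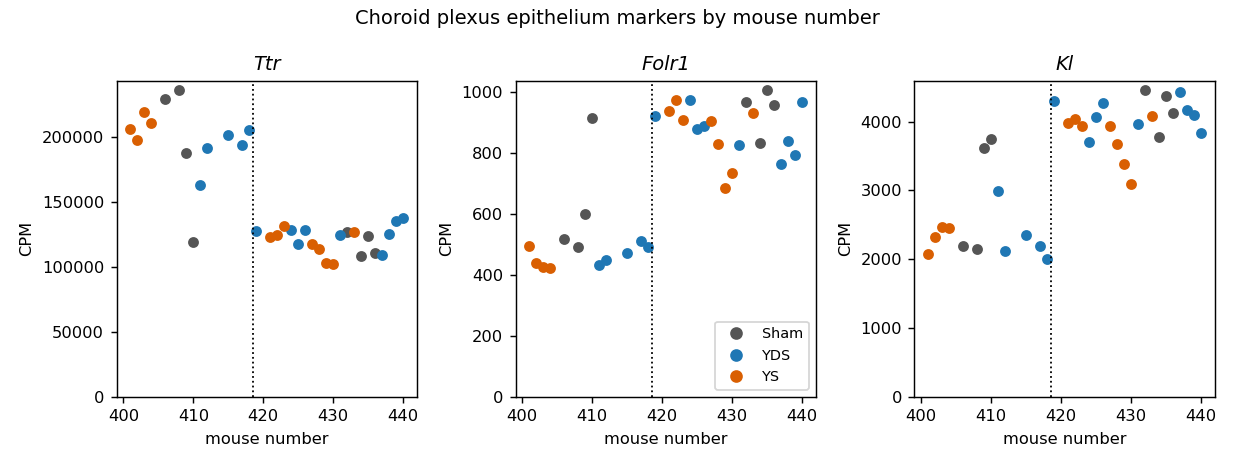
CPM of *Ttr*, *Folr1* and *Kl* (y axes, from 0) against mouse number (x axes), 1 point per library, coloured by arm. Left of the dotted line, mouse C410 (Sham) has *Ttr* at 119152 CPM, a level of the mice on the right, while the other mice on the left have 163015 CPM or more.

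By limma and edgeR no gene passed the adjusted threshold between YDS and Sham, and DESeq2 called 1. Limma on log2(CPM + 0.5), with the 3 arms in 1 fit and Benjamini-Hochberg adjustment over 13662 genes, called 0 genes (0%) at an adjusted p under 0.05, and the smallest adjusted p was 0.99999. At an unadjusted p under 0.05 there were 135 genes with a higher mean in YDS (0.988%) and 61 with a lower one (0.446%). EdgeR on the reads recovered from the CPM steps also called 0 genes, with 81 higher and 186 lower genes when p was left unadjusted. DESeq2 on the same reads called 1 gene, *Gm4951*, lower by 2.87 on the log2 scale with an adjusted p of 0.0414, which is named here because it was the single call. It was at 0.21 to 18.9 CPM in Sham, with a median of 1.27, and at 0.116 to 1.39 in YDS, with a median of 0.487, and limma gave -1.19 (unadjusted p = 0.0134). Its highest Sham values were 18.9 CPM in mouse C410 and 12.4 in C435, and DESeq2 was not run without these mice. The differences of the genes lower at the unadjusted threshold were larger, with a median of -0.595 against 0.174 for the higher ones. At that threshold and beyond 0.5 on the log2 scale there were 5 higher (0.0366%) and 35 lower genes (0.256%). All values for single genes below are thus values that did not pass over all genes, and "lower" or "higher" refers to the order of the means. The split between higher and lower depended on the scaling: with TMM factors there were 75 higher and 98 lower genes at the unadjusted threshold.

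With a term for the range of mouse numbers limma again called 0 genes (0%), with a smallest adjusted p of 0.185, and 1073 higher (7.85%) and 336 lower genes (2.46%) at the unadjusted threshold. In mice C419 to C440 alone it called 0 genes, with 679 higher and 300 lower at the unadjusted threshold, and in mice C401 to C418 alone 0 genes, with 1526 higher and 145 lower.

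**Figure D2:**
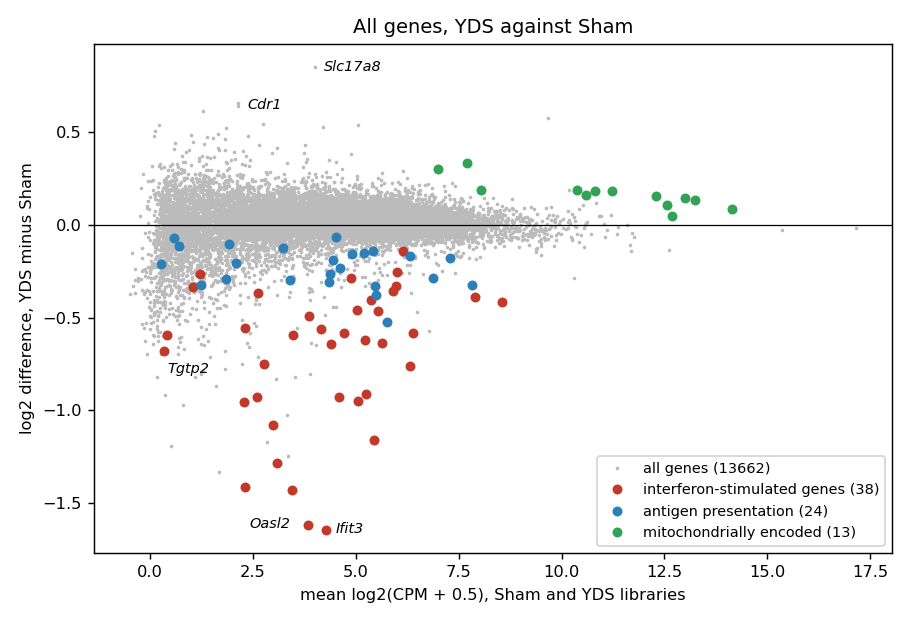
Log2 difference, YDS minus Sham (y axis), against the mean log2(CPM + 0.5) of the Sham and YDS libraries (x axis), 1 point per gene, with members of 3 lists coloured. All 38 interferon-stimulated genes lie below 0, down to -1.64 for *Ifit3*, and the mitochondrially encoded genes lie above it, at 0.05 to 0.33.

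Interferon-stimulated genes had the largest negative differences, with *Ifit3*, *Oasl2* and *Isg15* the lowest of all 13662 genes. Of 42 listed genes 38 were measured, and all 38 had a lower mean log2 level in YDS than in Sham. Among them, at an unadjusted p under 0.05, 16 of the 38 (42.1%) were lower and 0 higher, beside 0.446% of all genes lower, and the same 16 were lower by more than 0.5. The median of the list was -0.594, beside 0.02 over all genes. These genes follow each other from mouse to mouse, so their number is not a number of independent observations. Fewer cells that express them and less RNA per cell cannot be told apart in such libraries of whole tissue.

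Promoter stretches are shown because interferon is known to act on such genes through a sequence element. RefSeq (GRCm38.p6) gives promoters for 29 of the 38 genes and for 10642 of the 13662. A motif of GAAA, 2 bases of any kind and GAAA again, searched on both strands in 250 bases before the start site with overlapping matches counted, was found in 14 of the 29 (48.3%) and in 319 of the 10642 (3%). Among the 35 genes lower by more than 0.5 at an unadjusted p under 0.05, 15 of 24 with a promoter held it (62.5%). Of the 35, 16 are in the list itself. A match is a description of the letters only. Where RefSeq gives several start sites for a gene, each was searched. The start sites used, 34583529 for *Ifit3* and 34607957 for *Ifit3b*, lie inside the spans that RefSeq gives for these genes as a whole, so their stretches do too. In the stretches that follow, each read 5′ to 3′ on the strand of the gene, the capitals mark 1 match of the motif or its reverse complement. In the stretch of *Isg15* further matches overlap the marked one, and their other letters are in lower case.
Ifit3, chr19:34583363-34583392, + strand: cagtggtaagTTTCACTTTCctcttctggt
Ifit3, chr19:34583397-34583426, + strand: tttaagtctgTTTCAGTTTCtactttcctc
Ifit3b, chr19:34607793-34607822, + strand: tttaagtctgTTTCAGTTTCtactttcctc
Ifit1, chr19:34640794-34640823, + strand: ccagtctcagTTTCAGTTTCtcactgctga
Isg15, chr4:156200871-156200900, - strand: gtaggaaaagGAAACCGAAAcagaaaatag
Ddx60, chr8:61928024-61928053, + strand: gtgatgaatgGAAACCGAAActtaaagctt
Tgtp2, chr11:49064263-49064292, - strand: tccaggaatcGAAACCGAAAcctactctga
Both stretches of *Ifit3* are also found, letter for letter, before *Ifit3b*, and *Ifit3* and *Ifit3b* are near copies whose reads the counting may have split between them. Reads may likewise have been split between *Oas1a* and *Oas1g* and between *Apol9a* and *Apol9b*, whose promoter stretches were not compared.

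*Ifit3*, a cytoplasmic antiviral protein with tetratricopeptide repeats (chromosome 19, 34583119 to 34588982), had the most negative difference. Its level in Sham was 14.6 CPM in mouse C406, 44.5 in C408, 36.3 in C409, 200.1 in C410, 7.76 in C432, 30.5 in C434, 109 in C435 and 48.4 in C436. In YDS it ranged from 4.01 to 76.6 CPM with a median of 14.9, and the highest value, of mouse C418, was followed by 26.4 CPM in mouse C411. Both arms overlapped, but 13 of 14 YDS mice lay below the Sham median of 40.4 CPM. The log2 difference was -1.64 (standard error 0.54, unadjusted p = 0.00428, adjusted p = 0.99999 by limma).

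*Oasl2*, of the family of 2′-5′-oligoadenylate synthetases (chromosome 5, 114896926 to 114912245), was at 3.75 to 193 CPM in Sham, with a median of 34.5, and at 2.12 to 41.3 in YDS, with a median of 7.91. The mice at either end were C406 and C410 in Sham and C431 and C418 in YDS. Its log2 difference was -1.61 (standard error 0.57, unadjusted p = 0.00801 by limma). *Isg15*, a ubiquitin-like protein that is joined to other proteins, ranged from 3.261 to 93 CPM with a median of 26.6 in Sham and from 0.995 to 52.5 with a median of 9.2 in YDS, a log2 difference of -1.43 (unadjusted p = 0.0247). The enzymes that join Isg15 to proteins lay lower as well. *Uba7*, which activates it, had medians of 5.75 CPM in Sham and 3.71 in YDS, and all 14 YDS mice were below the Sham median (log2 difference -0.75, unadjusted p = 0.00944). *Ube2l6*, which carries it to its targets, had medians of 19.1 and 11.9 CPM (log2 difference -0.64, unadjusted p = 0.00853), and *Usp18*, which removes it, differed by -0.93 (unadjusted p = 0.0483).

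Of the transcription factors, *Irf7*, which amplifies the response, was at 14.1 to 275 CPM in Sham, with a median of 52.3, and at 6.86 to 89.6 in YDS, with a median of 25.2. The arms overlapped, with 12 of 14 YDS mice below the Sham median, and the log2 difference was -0.95 (standard error 0.44, unadjusted p = 0.0369 by limma). *Stat2* and *Irf9*, which take part in binding the response element, differed by -0.36 (p = 0.236) and -0.14 (p = 0.387). Sensors of viral RNA differed by -0.93 for *Dhx58*, -0.46 for *Ifih1* and -0.33 for *Ddx58*, of which the first was under an unadjusted p of 0.05. GTPases of the cell's own defence against pathogens included *Igtp* at -0.58, *Irgm1* at -0.58 and *Gbp3* at -0.91, each under that threshold. *Tgtp2*, a GTPase induced by interferon that is not in the list (chromosome 11, 49057196 to 49064212), had the smallest unadjusted p of all 13662 genes, 0.00164. It was at 2.61 to 8.99 CPM in Sham and 1.18 to 5.15 in YDS, 9 YDS mice were below the lowest Sham mouse, and the log2 difference was -0.78 (standard error 0.23).

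**Figure D3:**
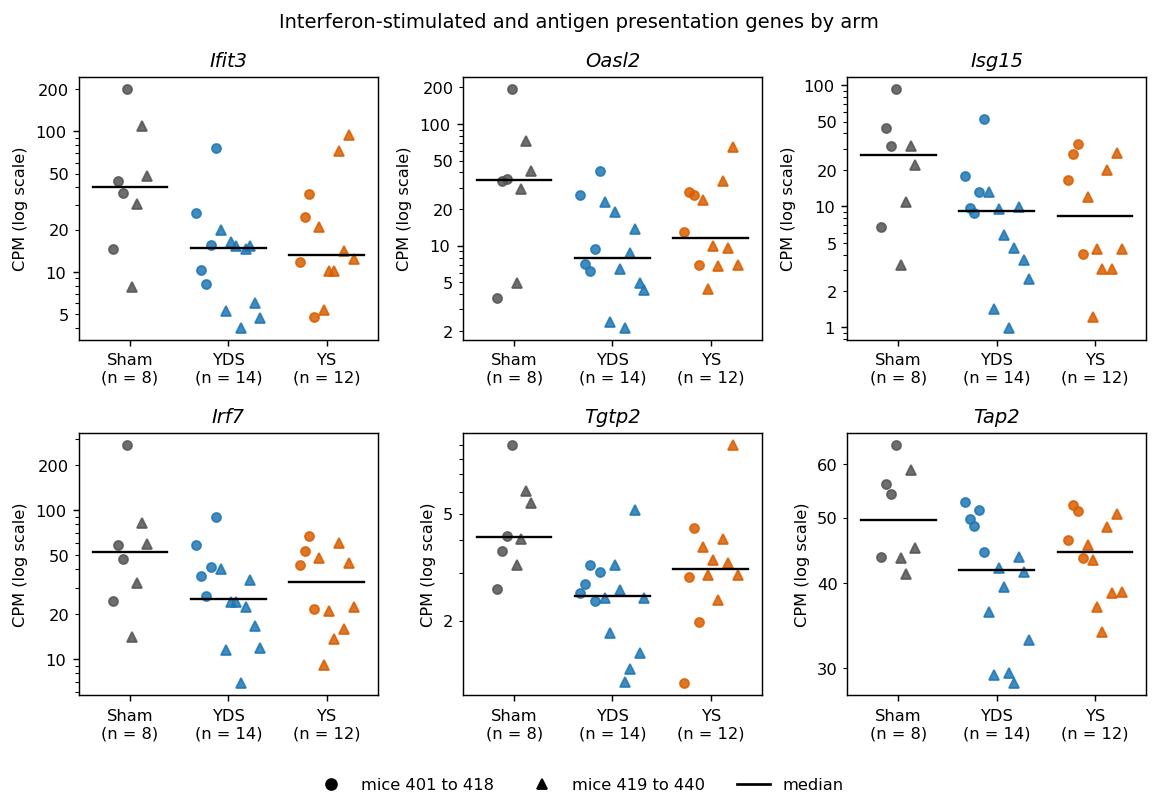
CPM on a log axis (y) of *Ifit3*, *Oasl2*, *Isg15*, *Irf7*, *Tgtp2* and *Tap2* by arm (x), 1 point per mouse, with circles for mice C401 to C418, triangles for mice C419 to C440 and a line at the median. The medians of *Ifit3* are 40.4 CPM in Sham, 14.9 in YDS and 13.2 in YS, and the arms overlap in every panel.

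The sums of these genes ranged more widely within the sham arm than the medians of the arms lay apart. The 38 genes summed to 916, 2107, 2332 and 5224 CPM in Sham mice C406, C408, C409 and C410 and to 1141, 1946, 3151 and 2675 CPM in Sham mice C432, C434, C435 and C436. In YDS the sum ranged from 740 to 2453 CPM, with a median of 1477, beside a Sham median of 2219. Sham mouse C410 had the highest level of the 22 mice in 30 of the 38 genes, and YDS mouse C418 in 5. In 24 genes mice C410 and C435 were the highest pair of the 8 Sham mice. Without mouse C410 the number of genes lower at an unadjusted p under 0.05 was 5 of 38 and the median -0.42, and without mouse C435 these were 9 and -0.502. Without both, a choice made after their values were seen, 0 of 38 were under that threshold, 36 were still below 0 and the median was -0.257. Without Sham mouse C406 or C432, the lowest of that arm, 26 or 24 genes were lower. With limma weights that count deviating libraries less, 36 of 38 were lower at the unadjusted threshold and the median was -0.948. Over all 13662 genes, 293 were lower at that threshold with these weights. Without 1 mouse it was 114 for C406, 92 for C432, 35 for C410 and 37 for C435. The number of interferon-stimulated genes under the threshold thus rested on single Sham mice in either direction.

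Mice of the 2 number ranges share no library, and each range has its own Sham mice. In mice C419 to C440 (4 Sham, 9 YDS) all 38 genes were below 0, with a median of -0.8. Of them 15 were under an unadjusted p of 0.05, beside 300 lower of all 13662 genes in that fit. In mice C401 to C418 (4 Sham, 5 YDS) 32 were below 0, with a median of -0.379 and 0 under that threshold. *Ifit3* differed by -1.76 in the former and -1.25 in the latter. *Mx2* and *Stat2* were above 0 in mice C401 to C418, at 0.67 and 0.38, and below it in mice C419 to C440, at -0.99 and -0.78. The difference between the ranges was not tested. With a term for the range in the common fit, 18 of 38 were lower and 0 higher at the unadjusted threshold, beside 2.46% of all genes lower, and the median was -0.578.

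**Figure D4:**
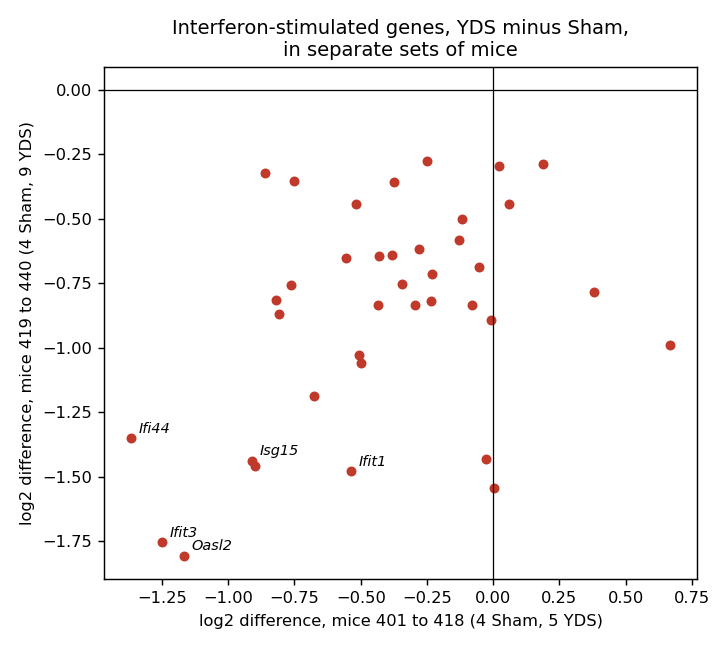
Log2 difference, YDS minus Sham, of the 38 interferon-stimulated genes in mice C401 to C418 (x axis) and in mice C419 to C440 (y axis), which share no library. All 38 points lie below 0 on the y axis, and 32 also lie left of 0 on the x axis.

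Whole young serum stood beside depleted serum in these genes. The median of the 38 genes for YS minus Sham was -0.546, from the same Sham libraries, and for YS minus YDS, the test between the serums, it was 0.102. Of the 38 genes 3 (7.89%) had an unadjusted p under 0.05 for YS minus YDS, as had 1026 of all 13662 genes (7.51%), and limma called 0 (0%) at an adjusted p under 0.05 in that contrast. *Ifit3* was at 4.79 to 94.3 CPM in YS, with a median of 13.2. The values of single YS mice again reached those of the higher Sham mice.

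Genes of antigen presentation through class I of the major histocompatibility complex, which interferon also induces, lay lower by smaller amounts. All 24 listed genes were measured and all 24 were below 0, beside 5271 of all 13662 genes. The median was -0.21, beside 0.02 over all genes. At an unadjusted p under 0.05, 5 (20.8%) were lower, beside 0.446% of all genes. *Tap2*, a subunit of the transporter that brings peptides to class I molecules (chromosome 17, 34204479 to 34216321), was at 41.3 to 64.1 CPM in Sham and 28.5 to 52.7 in YDS, and its log2 difference was -0.33 (standard error 0.11, unadjusted p = 0.00618 by limma). The other subunit, *Tap1*, differed by -0.31 (p = 0.0265). The class I heavy chains *H2-K1*, *H2-D1* and *H2-T23* differed by -0.29 (p = 0.0141), -0.38 (p = 0.0269) and -0.53 (p = 0.0202), and these genes can share reads. *B2m*, the light chain of all class I molecules, had a difference of -0.32 that was not under the threshold (p = 0.0974). *Tap2* also moved with the mouse numbers: it was at 44.5 to 52.7 CPM in the 5 YDS mice of the lower range and at 28.5 to 43.7 in the 9 of the higher one. Within these ranges it differed by -0.13 and -0.39. Over the list, 17 of 24 were below 0 in mice C401 to C418, with a median of -0.108 and 0 under the threshold. In mice C419 to C440 20 of 24 were below 0, with a median of -0.256. There 4 were lower at the threshold, beside 300 of all 13662 genes. Without Sham mice C410 and C435, 23 of the 24 genes were below 0, with a median of -0.175 and 0 under the threshold.

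At an unadjusted p under 0.05, 35 genes were lower by more than 0.5. Of these, 16 were in the interferon list, which holds 38 of the 13662 genes, 2 in other lists (*H2-T23* and *Siglech*) and 17 in none. Among the 17 were *Tgtp2*, *Uba7*, *Ube2l6* and *Ddx60*, and also *Apol9a* at -1.33, *Apol9b* at -1.25, *Gbp6* at -0.82, *Oas1g* at -0.87 and *Slfn8* at -0.67. *Kif5a*, a kinesin of neurons, differed by -1.03 (p = 0.039), with 71.6 CPM in 1 Sham mouse, a Sham median of 12.2 and a YDS median of 8.09.

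Genes that were higher in YDS differed by small amounts. Of the 135 genes higher at the unadjusted threshold 1 was in a list. The lists cover only a small part of the 13662 genes, so no result about the lists is read from this number. The 10 with the smallest p among genes above a mean log2 level of 1 differed by 0.13 to 0.64. *Phf20l1*, a reader of methylated lysine (chromosome 15, 66577500 to 66647043), was at 46.7, 66, 50.2, 63.4, 53.4, 66.8, 53.7 and 56.8 CPM in Sham mice C406 to C436 in order of their numbers and at 60.4 to 73 CPM in YDS. All 14 YDS mice were above the Sham median of 55.2, and 4 were above the highest Sham mouse. Its log2 difference was 0.19 (standard error 0.06, unadjusted p = 0.00202 by limma), and it stayed under an unadjusted p of 0.05 with each library left out in turn. So did the other genes of the 10 and, among the lower genes, *Ifit3*, *Oasl2*, *Tgtp2* and *Tap2*. *Isg15* did so in 20 of the 22 fits and *Irf7* in 14. *Luc7l2*, a splicing factor of the U1 snRNP, was at 119 to 158 CPM in Sham and 146 to 173 in YDS, with 10 YDS mice above the highest Sham mouse (log2 difference 0.16, p = 0.00228). *Abhd18* (0.28, p = 0.00203), *Smc5*, a subunit of a complex of DNA repair (0.21, p = 0.00386), *Gpatch2* (0.17, p = 0.00588), *2010315B03Rik* (0.17, p = 0.00606), *2610307P16Rik* (0.29, p = 0.00347), *Ccdc160* (0.20, p = 0.00808) and *Traf3ip1*, a component of intraflagellar transport (0.13, p = 0.00769), followed. For YS minus YDS, where 7.51% of all genes were under an unadjusted p of 0.05, 4 of these 10 were: *Abhd18* at -0.28 (p = 0.000642), *Phf20l1* at -0.14 (p = 0.0072), *Traf3ip1* at -0.10 (p = 0.0188) and *Smc5* at -0.13 (p = 0.0335). Both contrasts use the YDS libraries, so these values are no independent test. In mice C401 to C418 and C419 to C440 the difference from Sham was 0.47 and 0.11 for *Abhd18*, 0.37 and 0.09 for *Smc5*, 0.25 and 0.15 for *Phf20l1* and 0.17 and 0.08 for *Traf3ip1*.

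*Cdr1*, whose locus is known for a circular antisense RNA of neurons, had the widest difference of the 10. It lies on chromosome X, 61183246 to 61185558. It was at 1.84 to 4.34 CPM in Sham, with a median of 2.82, and at 3.02 to 8.95 in YDS, with a median of 5.01, and 8 YDS mice were above the highest Sham mouse. The log2 difference was 0.64 (standard error 0.21, unadjusted p = 0.00381 by limma). Whether the counting used the strand is not given in the sources used here, so reads of the gene and of the antisense RNA cannot be told apart. By limma, the other genes higher by more than 0.5 at an unadjusted p under 0.05 were these. *Slc17a8*, a vesicular glutamate transporter, was at 0.85 (p = 0.0371) and *Hr* at 0.52 (p = 0.0396). *Nkd2*, an inhibitor of Wnt signalling, was at 0.52 (p = 0.0302) and *A430110L20Rik* at 0.54 (p = 0.0486). *Slc17a8* was at 1.84 to 26.5 CPM in Sham and 11.4 to 37.3 in YDS, and the 3 lowest of the 22 mice were Sham mice C408, C409 and C434. *Hr* reached 106 CPM in 1 YDS mouse, beside a YDS median of 17.9 and a Sham median of 13.8.

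**Figure D5:**
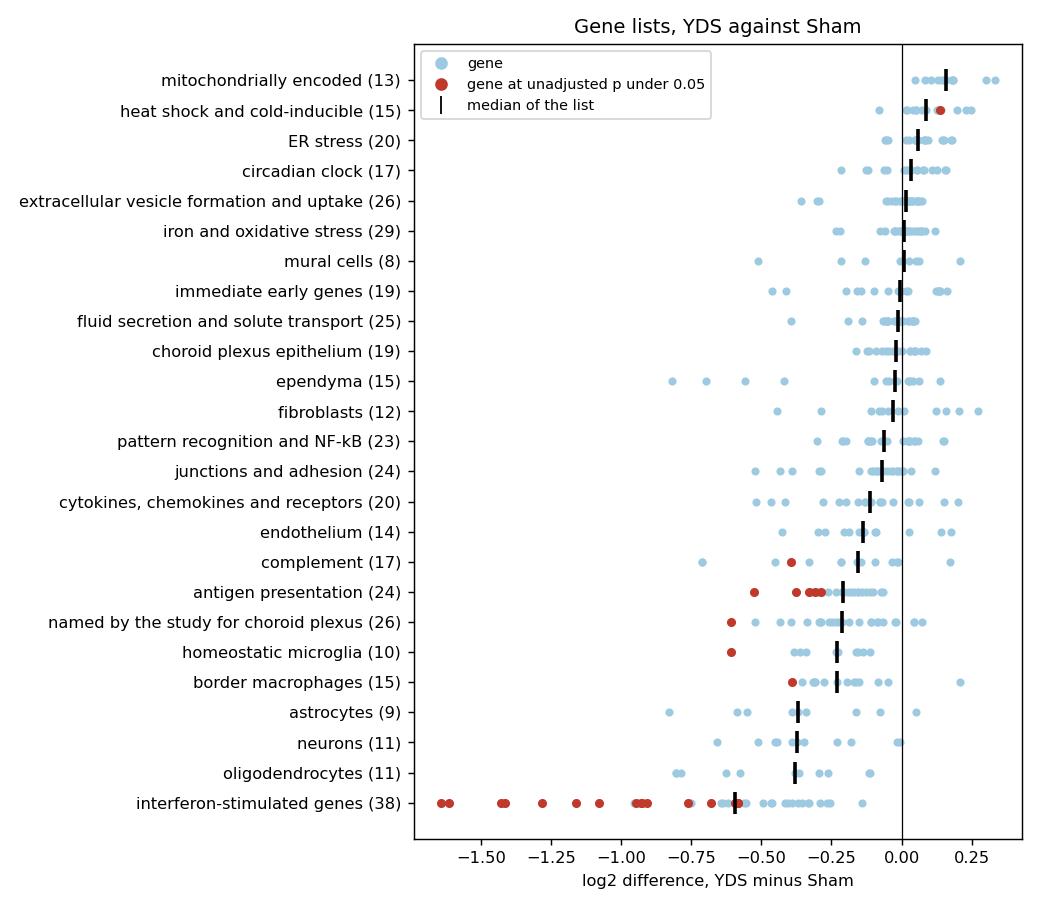
Log2 difference, YDS minus Sham (x axis), of the measured members of each list with 5 or more (y axis, number of genes in brackets), with red points for genes at an unadjusted p under 0.05 and a bar at the median of the list. Interferon-stimulated genes have the lowest median, -0.594, and mitochondrially encoded genes the highest, 0.16.

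Markers of brain tissue outside the plexus had lower means in YDS, and 1 Sham library stood far above the other Sham and the YDS libraries in astrocyte and fibroblast genes. Of 11 measured oligodendrocyte genes, 11 neuronal and 9 astrocyte genes, 11, 11 and 8 were below 0, with medians of -0.381, -0.373 and -0.369, and 0 of these 31 were under an unadjusted p of 0.05. In edgeR, 6 of the oligodendrocyte, 5 of the astrocyte and 0 of the neuronal genes were lower at that threshold, with medians of -0.668, -1.174 and -0.568. Over all 13662 genes, 186 were lower at that threshold in edgeR. Sham mouse C434 had 908 CPM over the 9 astrocyte genes, against 166 to 214 in the other Sham mice and 134 to 297 in YDS, and 434.4 CPM over the oligodendrocyte genes, against 129 to 221 and 105 to 188. *Gfap*, the intermediate filament of astrocytes, was at 274 CPM in this mouse and at 2.37 to 14.5 in the other 7 Sham mice. It was at 2.4 to 53.6 CPM in YDS. Fibroblast genes summed to 775 CPM in mouse C434, beside 188 to 292 in the other Sham mice and 167 to 514 in YDS. A YS mouse, C430, lay above mouse C434 in both lists, at 1407 CPM over the astrocyte and 2432 over the fibroblast genes. In limma without mouse C434 the median was 0.051 for the astrocyte genes and 0.099 for the endothelial genes. It was -0.291 for the neuronal, -0.257 for the oligodendrocyte and 0.177 for the fibroblast genes. For the interferon-stimulated genes it was -0.617. EdgeR was not run without this mouse. The neuronal genes were low throughout, at a sum of 12.2 to 64.2 CPM in Sham and 17.3 to 58.3 in YDS.

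The 26 genes that the study names for the choroid plexus were chosen by it on these samples, so their direction is not independent evidence. In YDS against Sham 23 were below 0 and 3 above, from -0.61 to 0.07, with a median of -0.213, and 1, *Siglech*, was under an unadjusted p of 0.05. Sham mouse C434 was the highest of the 8 Sham mice in 21 of the 26, and without it the median was 0.014. *Siglech*, a lectin of microglia and plasmacytoid dendritic cells, was at 0.5 to 2.7 CPM in Sham, with a median of 1.79, and 0.387 to 1.39 in YDS, with a median of 0.948. All 14 YDS mice were below the Sham median, and the log2 difference was -0.61 (standard error 0.21, unadjusted p = 0.00721 by limma). For the other 25 the p was 0.202 or more.

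Macrophage and microglia markers had lower means in YDS with few values under the threshold. Over all 13662 genes, 5271 were below 0 and 0.446% were lower at an unadjusted p under 0.05. All 10 genes of homeostatic microglia were below 0, with a median of -0.23, and *Siglech* was the 1 (10%) at that threshold. Of 15 measured genes of border macrophages 14 were below 0, with a median of -0.231, and 1 was under the threshold, *Trem2*, a lipid receptor, at -0.39 (p = 0.049). In mice C401 to C418 the list had 8 of 15 above 0 and a median of 0.01, and in mice C419 to C440 all 15 were below 0, with a median of -0.333. *Trem2* differed by 0.04 within mice C401 to C418 and by -0.62 within mice C419 to C440. In the complement list, with 16 of 17 below 0 and a median of -0.157, *Itgb2*, the shared chain of leukocyte integrins, was at -0.39 (p = 0.0431). In edgeR, 4 of the 10 microglia, 2 of the 15 macrophage and 3 of the 17 complement genes were lower at the unadjusted threshold. That fit had 186 lower genes of all 13662. With each library left out in turn, *Trem2* was under the threshold in 8 of 22 fits and *Itgb2* in 9 of 22. Summed, the homeostatic microglia genes were at 79.7 to 143 CPM in Sham and 74 to 107 in YDS. Mouse C434 was the highest Sham mouse in this sum. It was also the highest over the border macrophage genes, at 174.8 CPM beside 64.6 to 112.8 in the other Sham mice.

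Epithelial genes gave no call in the common fit. Of 19 genes of choroid plexus epithelium 8 were above and 11 below 0, from -0.16 to 0.09, with a median of -0.018 and 0 under an unadjusted p of 0.05. The median was -0.209 with 15 of 19 below 0 in mice C401 to C418, -0.007 with 10 of 19 below 0 in mice C419 to C440, and -0.097 with 14 of 19 below 0 with a term for the range. The member with the smallest p in each direction was *Kcne2*, a potassium channel subunit, at 0.09 (p = 0.269) and *Sostdc1*, an inhibitor of BMP and Wnt signals, at -0.09 (p = 0.304). Fluid secretion and solute transport genes had a median of -0.014, junction and adhesion genes -0.068, genes of extracellular vesicle formation and uptake 0.016, and genes of iron and oxidative stress 0.01, with 0 of 25, 24, 26 and 29 under the threshold. With TMM factors the vesicle list was at -0.003 and the iron list at -0.009. With a term for the range of mouse numbers, 2 of the 19 epithelial genes and 2 of the junction genes were lower and 1 gene of iron and oxidative stress was higher and 1 lower at that threshold, beside 7.85% of all genes higher and 2.46% lower. Ependymal genes had a median of -0.022, endothelial -0.137 and mural cell genes 0.01 (-0.005 with TMM factors), again with 0 under the threshold. Of the lymphocyte list 3 of 15 genes, of the neutrophil list 1 of 8 and of the red blood cell list 3 of 5 were in the table, and 0 of these 7 were under it.

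Heat shock, secretory and mitochondrial transcripts had higher means, in a fit where 8391 of all 13662 genes were above 0, with a median of 0.02. Of 15 heat shock and cold-inducible genes 14 were above 0, with a median of 0.087 (0.068 with TMM factors). *Dnaja1*, a co-chaperone of Hsp70, was the 1 at an unadjusted p under 0.05 (6.67% of the list, beside 0.988% of all genes). It was at 59.6 to 78.7 CPM in Sham and 69.9 to 87.2 in YDS, with 7 YDS mice above the highest Sham mouse and a log2 difference of 0.14 (p = 0.019). With TMM factors it was at 0.12 (p = 0.0852), and neither that fit nor edgeR had a heat shock gene under the threshold. With a term for the range of mouse numbers 4 of the 15 were higher at the threshold, with a median of 0.146, beside 7.85% of all genes. By limma *Dnaja1* differed by 0.08 (p = 0.443) in mice C401 to C418 and by 0.20 (p = 0.00379) in mice C419 to C440. Of 20 genes of endoplasmic reticulum stress 17 were above 0, with a median of 0.059 (0.04 with TMM factors), led by *Dnajb11* at 0.08 (p = 0.254). All 13 mitochondrially encoded genes were above 0, with a median of 0.16, and 0 were under the threshold. With the term for the range, 2 of the 20 stress genes and 3 of the 13 mitochondrial genes were higher at the threshold. The sum of the mitochondrial genes followed the mouse numbers, at 72841 to 121880 CPM in the YDS mice of the lower range and 35559 to 62500 in those of the higher one. Sham mouse C410 had 33202 CPM and Sham mouse C406 109010. The median of these 13 was 0.674 in mice C401 to C418 and -0.089 in mice C419 to C440, and without Sham mice C410 and C435 it was -0.047. Immediate early genes had a median of -0.006, clock genes 0.034, pattern recognition and NF-kB genes -0.063 and cytokine, chemokine and receptor genes -0.111, with 0 under the threshold. *Nr1d1*, a repressor in the clock, came nearest at -0.22 (p = 0.0507), with 0.13 (p = 0.353) in mice C401 to C418 and -0.45 (p = 0.0015) in mice C419 to C440.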

How the data were processed

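RNA-seq libraries of choroid plexus from 34 mice were analysed. The authors aligned reads with Subread (mm10), summarised them by gene using featureCounts, and deposited CPM values. In 34 of 34 libraries all values were whole multiples of 1 read within 0.05 reads, and 19 symbols turned into dates were restored by Entrez ID. The 10 deposited columns of the authors' comparisons (average log2 CPM, log2 fold change, p-value and FDR) were not used.

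Limma 3.58.1 with trend in R 4.3.3 was fitted to log2(CPM + 0.5), which understates the change of low genes, with 3 arms and no filter. EdgeR 4.0.16 and DESeq2 1.42.0 were run on the recovered reads. Scripts were tested on simulated data. The rule for named genes took *Ttr*, *Folr1* and *Kl*, 10 genes per direction by smallest unadjusted p above a mean log2 level of 1 (none passed the adjusted threshold), the member of each of 29 lists with the smallest p per direction, and 26 genes named by the study. Other genes in the report were chosen after their values were seen. Members, lists and tests were chosen with earlier results of these data known. P-values weigh the difference between arms against the spread between mice. In the fit without a term for the range, that spread also holds the separation by mouse number. Of the lists' members, 1 gene is not reported here by itself.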

Additional observations from a re-analysis of the deposited data

Results flagged for a closer look

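Among 129 named genes, 20 had a Sham mouse far from the other 7 by Dixon's ratio (critical value 0.526 for 8 samples), where chance flags about 1 in 20 groups. In 17 of the 20 this was Sham mouse C434, always as the highest. It had 273.7 CPM of *Gfap* beside 14.49 in the next Sham mouse, 32.18 of the astrocyte connexin *Gjb6* beside 2.552, and 26.03 of the bicarbonate transporter *Slc4a4* beside 2.285. It also had 235.3 CPM of *Apod* (next 28.13), 50.86 of *Nbl1*, 46.44 of *Meg3*, 25.69 of *Myh11*, 22.24 of *Sdc3*, 16.59 of *Tmem212*, 14.55 of *Tek* and 9.654 of *Kcnk2*. Lower levels were at 5.643 CPM for *Sema6a*, 5.523 for *Astn1*, 4.395 for *Ntm*, 3.938 for *Rap1gap*, 3.746 for *Ctnnd2* and 3.386 for *Pcdh1*. Of the brain and stroma genes of this mouse the report gives the sums and the medians without it.

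Sham mouse C409, which lay between the ranges of mouse numbers in *Ttr*, was the highest in the epithelial genes *Kcne2*, at 646.4 CPM beside 535.6, and *Sostdc1*, at 960.7 beside 763.8. It was the lowest in *2610307P16Rik*, at 1.339 CPM beside 1.705.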

How the results depend on the processing

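Counts here are of genes with a higher and of genes with a lower mean in YDS when p is left unadjusted and below 0.05, 135 and 61 in the fit of the report, of which 5 and 35 were beyond 0.5 on the log2 scale. Limma, edgeR and DESeq2 called 0 genes after adjustment under each alternative, except DESeq2, which called 1. Beyond 0.5 there were 9 higher genes with a pseudocount of 0.1 and 3 with 1. TMM factors gave 75 and 98 (3 higher beyond 0.5), RLE factors 71 and 101, the 2 arms alone 101 lower, and leaving out C411 and C412 81 higher (3 beyond 0.5). Library weights gave 348 and 293 (12 and 70 beyond 0.5), and neuron and epithelium markers as covariates 465 and 110. EdgeR gave 81 and 186 (8 and 130) and DESeq2 217 lower (11 and 149). Leaving out each mouse in turn gave 80 to 243 higher and 35 to 114 lower genes, 2 to 9 and 17 to 59 beyond 0.5; the number beyond 0.5 that were lower was 17 without Sham mouse C410, 22 without C435, 51 without C406 and 59 without C432.

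Alternatives chosen after seeing the data were a term for the range of mouse numbers, 1073 and 336 (27 and 59), the same in edgeR, 615 and 1005 (40 and 303), and a term for the sign of the first component, 420 and 126 (11 higher beyond 0.5). Mice C419 to C440 gave 679 and 300 (12 higher beyond 0.5), mice C401 to C418 1526 and 145 (574 and 66), and leaving out Sham mice C410 and C435 233 and 20 (10 lower beyond 0.5). In mice C401 to C418 *Trem2* was at 0.04 (p = 0.831), *Vtn* at 0.39 (p = 0.0387) and *Folr1* at -0.38 on the log2 scale. The median of the 3 lymphocyte genes, 0.256, was 1.168 in edgeR, 1.158 in DESeq2 and 1.33 in edgeR with the term. Of 5022 values of 129 genes 359 crossed to above the unadjusted threshold and 123 to below it, 2 reversed, and the cause was not tested. The filter left no neutrophil gene, and a term for sex was not run. No paired analysis was possible because the arms hold different mice and the numbers name single mice. The library with the fewest reads had 27165663.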
